A study of Homo sapiens with 6 samples.

Results

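The death receptor complex examined here comprised 10 genes, chosen by name from the annotated array table: the TRAIL receptors TNFRSF10A, TNFRSF10B and TNFRSF10D, the receptor FAS, the adaptor FADD, the caspases CASP8 and CASP10, the inhibitor CFLAR, and TRADD and RIPK1. The choice was made with earlier results of these data known. All 10 were measured, by 39 of the 37458 probe sets that name a single gene, and they stand among 15894 genes in all. RKO cells, a human colon carcinoma line, were transfected with a short hairpin RNA against hsa_circ_0064559 (shCIRC) or with a control hairpin of nonsense sequence that the study calls empty vector (shEV), and 3 samples of each were run on Affymetrix PrimeView arrays. Cells of both groups were grown in DMEM with fetal bovine serum, penicillin and streptomycin, and no genotype beyond the hairpin was given. The arrays compare 1 hairpin with 1 control. Whether the 3 samples of a group were separate cultures is not stated, and the p-values cover only the spread among these 3, which could be technical. The methods give only a lower limit for the share of transfected cells. A higher level in every cell cannot be told apart from a larger share of cells with that level. The circular RNA itself was not measured here.

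The hairpin sequences are shown because they define the groups. Each is given 5′ to 3′ in lower case, and no part of either is marked.
shCIRC: tttattatagcctgccacagc
shEV: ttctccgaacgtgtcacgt

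TRAIL and FAS ligand are proteins of the TNF family that bind receptors with a death domain on the cell surface. The occupied receptors recruit the adaptor FADD, which in turn gathers caspase-8 and caspase-10 into a death-inducing signalling complex where these proteases activate each other. CFLAR, a caspase-like protein without protease activity, joins the same complex and limits caspase-8, and TNFRSF10D is a decoy that binds TRAIL but has a truncated death domain. TRADD and RIPK1 serve mainly the complex of the TNF receptor, from which NF-kB signalling or death can follow. In many colon carcinoma lines TRAIL can induce apoptosis through this route, and FAS and TNFRSF10B are known targets of p53.

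In shCIRC cells, relative to shEV cells, 7 of the 10 genes were higher (TNFRSF10A, TNFRSF10B, TNFRSF10D, FAS, FADD, CASP8 and CFLAR), 0 were lower and 3 (CASP10, TRADD and RIPK1) did not pass the test. Called means an adjusted p under 0.05 from limma, adjusted by Benjamini-Hochberg over the whole table, with 1 probe set per gene, the one with the highest mean over the 6 arrays. Of all 15894 genes, 22.8% were called higher and 24.7% lower, 47.5% in either direction. These shares are given as a background and not as a test, since the members were chosen with earlier results known. With a fold above 1.3 required as well, 6 members were higher and 0 lower, against 7.44% and 9.42% of all genes. The median log2 fold change was 0.41 over the 10 genes and -0.005 over all genes, and the 7 called genes lay above 91.8% to 98.5% of all genes in log2 fold change. No member was lower at an unadjusted p under 0.05 or by the methods' t-test either (0 by each). The control probe sets of the array, which read RNA quality, differed between the groups. The 3′ minus 5′ log2 signal of GAPDH was -0.30 ± 0.02 in shCIRC and -0.16 ± 0.02 in shEV (SD, n = 3 each), and that of ACTB was -0.01 ± 0.03 in shCIRC and 0.13 ± 0.02 in shEV. Their part in the results was not tested.

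**Figure D1:**
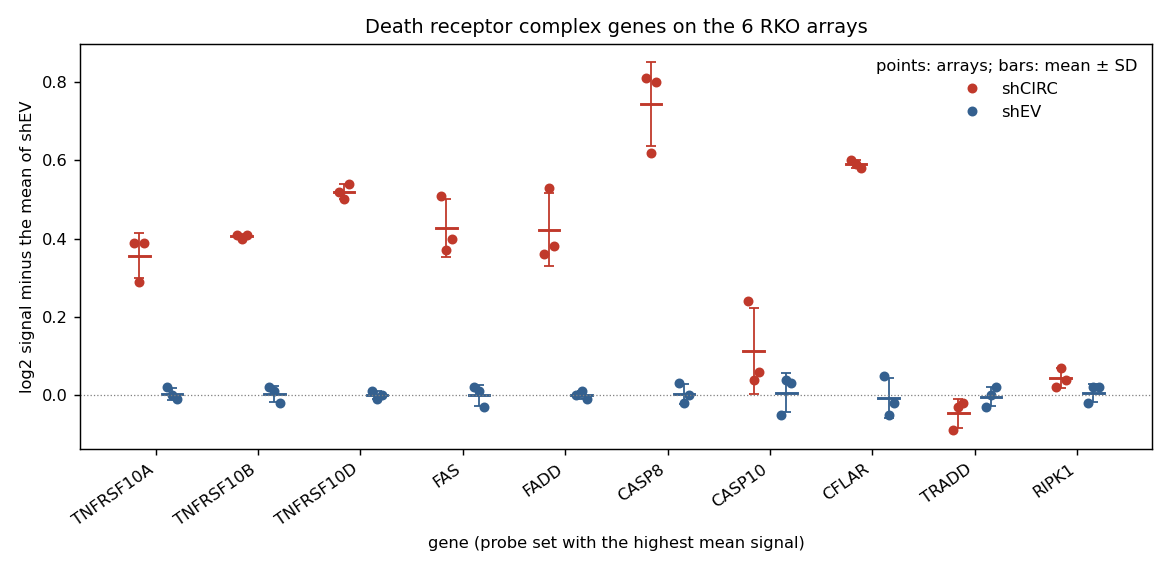
Log2 signal of each gene on each array, minus the mean of the shEV arrays, for the probe set with the highest mean. Points are arrays (shCIRC in red at the left of each pair, shEV in blue), bars are the mean ± SD of 3 arrays. The shCIRC arrays of the 7 genes called higher lie clear of the shEV arrays, with mean shifts from 0.36 in TNFRSF10A to 0.74 in CASP8, while CASP10, TRADD and RIPK1 stay near 0.

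All 3 signalling receptors rose. TNFRSF10B, the TRAIL receptor DR5, had log2 signals of 12.43, 12.42 and 12.43 in shCIRC and of 12.04, 12.03 and 12.0 in shEV. Its 3 shCIRC arrays nearly coincided and lay above every shEV array. The log2 fold change was 0.40 (95% interval 0.34 to 0.47, adjusted p = 4.3e-05 from limma), a fold of 1.32. TNFRSF10A, the TRAIL receptor DR4, had log2 signals of 10.61, 10.51 and 10.61 in shCIRC and of 10.24, 10.22 and 10.21 in shEV. The groups did not overlap, and shCIRC replicate 2 was the lowest of its group. The log2 fold change was 0.36 (95% interval 0.27 to 0.45, adjusted p = 0.00027 from limma). FAS, the receptor of FAS ligand, had log2 signals of 10.21, 10.07 and 10.10 in shCIRC and of 9.72, 9.71 and 9.67 in shEV, again without overlap. Its log2 fold change was 0.43 (95% interval 0.32 to 0.53, adjusted p = 0.00028 from limma), a fold of 1.34.

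The decoy receptor rose as well. TNFRSF10D had log2 signals of 12.09, 12.07 and 12.11 in shCIRC and of 11.58, 11.56 and 11.57 in shEV. The gap between the groups was far wider than the spread within either (SD 0.02 in shCIRC and 0.01 in shEV, n = 3 each). The log2 fold change was 0.52 (95% interval 0.45 to 0.59, adjusted p = 1.7e-05 from limma), a fold of 1.43.

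The adaptor and the initiator caspase were also higher. FADD had log2 signals of 10.65, 10.82 and 10.67 in shCIRC and of 10.29, 10.30 and 10.28 in shEV. The shCIRC arrays were more spread (SD 0.09, n = 3) than the shEV arrays (SD 0.01, n = 3) but did not reach down to them, and the log2 fold change was 0.42 (95% interval 0.31 to 0.54, adjusted p = 0.00045 from limma). CASP8 showed the largest shift of the 10 genes in the probe set with the highest mean, with log2 signals of 9.78, 9.59 and 9.77 in shCIRC and of 9.0, 8.95 and 8.97 in shEV. Its log2 fold change was 0.74 (95% interval 0.61 to 0.88, adjusted p = 6.2e-05 from limma), a fold of 1.67, which ranked 243 from the highest of the 15894 genes. CFLAR, the inhibitor in the same complex, had log2 signals of 8.88, 8.87 and 8.86 in shCIRC and of 8.33, 8.23 and 8.26 in shEV. Its log2 fold change was 0.60 (95% interval 0.51 to 0.68, adjusted p = 2.5e-05 from limma), a fold of 1.51.

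The other 3 genes showed no shift of this size. CASP10, the second initiator caspase, had log2 signals of 7.14, 6.94 and 6.96 in shCIRC and of 6.85, 6.94 and 6.93 in shEV, and the groups overlapped. Its log2 fold change was 0.11 (95% interval -0.04 to 0.25, adjusted p = 0.20 from limma). CASP10 was dim, above only 37.3% of all genes in mean signal. TRADD, the adaptor of the TNF receptor, had log2 signals of 7.90, 7.96 and 7.97 in shCIRC and of 7.96, 7.99 and 8.01 in shEV, with a log2 fold change of -0.04 (95% interval -0.12 to 0.04). RIPK1, the kinase of that complex, had log2 signals of 8.83, 8.88 and 8.85 in shCIRC and of 8.79, 8.83 and 8.83 in shEV, with a log2 fold change of 0.04 (95% interval -0.03 to 0.11). Its lowest shCIRC array lay just above its highest shEV array, so that 8 of the 10 genes had groups without overlap in the upward direction, against 27.0% of all genes, and 0 in the downward direction, against 29.0%. The intervals of TRADD and RIPK1 leave out changes of the size seen in CASP8, CFLAR or the receptors.

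Of 14 listed markers of leukocytes, endothelium, fibroblasts and erythroid cells, 8 were in the annotated table, all 8 below the median signal of all genes. Of these, 0 were called higher in shCIRC and 1, ITGAM, was called lower, with a log2 fold change of -0.20 (limma adjusted p = 0.011). Of the epithelial markers KRT18 (log2 signal 10.95 in shCIRC and 11.25 in shEV) lay above 89.8% of all genes, KRT8 and EPCAM near the median and KRT19 above 24.8%, while CDH1 was not in the annotated table. Markers of cell state moved with the hairpin in both directions. KRT8 had a log2 fold change of 0.53, KRT18 one of -0.30 and EPCAM one of -0.46, and KRT19 at -0.04 did not pass. The mesenchymal markers VIM and ZEB1 were higher, with 0.72 and 0.13. Their part in the members' changes was not tested.

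The probe sets of a gene did not all give the same size of change. Of the 27 probe sets of the 7 called genes, 25 were higher, 0 lower and 2 did not pass, in a fit over all 37458 probe sets of which 25.6% were called higher and 24.6% lower. Of all 39, 27 had groups without overlap in the upward direction, against 29.8% of all probe sets. In the downward direction there were 2, both of RIPK1, and 29.0% of all genes had such groups in their brightest probe set. Of the 12 probe sets of CASP10, TRADD and RIPK1, 1 was higher, 2 were lower and 9 did not pass. The other 2 probe sets of TNFRSF10B had log2 fold changes of 0.82 and 0.72, against 0.40 for the one with the highest mean. The first of these read 10.18, 10.18 and 10.18 in shCIRC and 9.36, 9.35 and 9.36 in shEV. The other probe set of TNFRSF10D had a log2 fold change of 1.03, a fold of 2.04, and read 10.73, 10.83 and 10.83 in shCIRC and 9.73, 9.78 and 9.79 in shEV. Those 3 probe sets thus showed larger changes than the ones chosen by brightness. The 2 of FAS had close values, 0.43 and 0.39. FADD had 0.42, 0.56 and 0.25, and the last, whose groups overlapped, missed the threshold (limma adjusted p = 0.14).

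**Figure D2:**
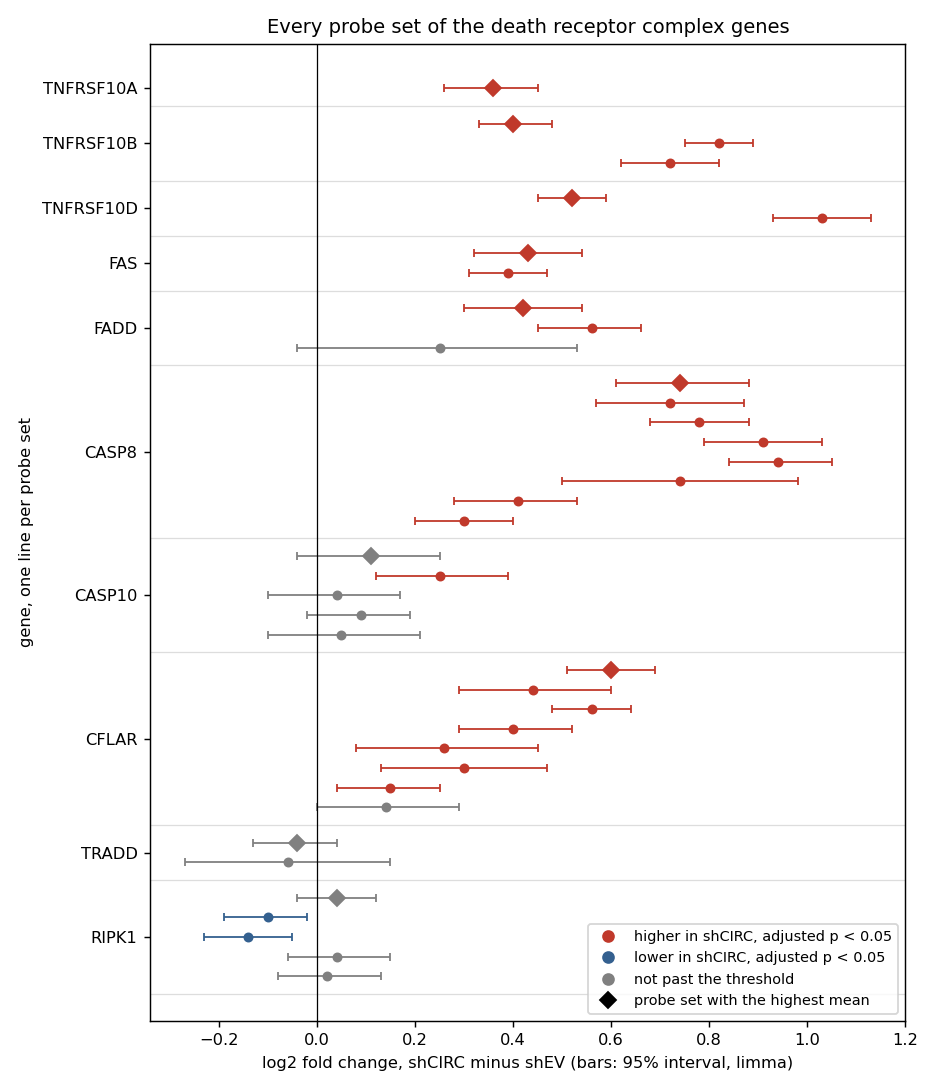
Log2 fold change of shCIRC minus shEV for each of the 39 probe sets, with 95% intervals from the limma fit over all probe sets. Diamonds mark the probe set with the highest mean of each gene, red is higher, blue is lower and grey did not pass. All 8 probe sets of CASP8 are higher, from 0.30 to 0.94, whereas 4 of the 5 of CASP10 did not pass.

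Within CASP8, CFLAR and CASP10 the probe sets are grouped here by the stretch of gene to which the annotation aligns their sequence, a grouping chosen after the values were seen. RIPK1, with as many probe sets as CASP10, shows no such order, since its sets of 1 and the same alignment differed in sign. Sets of the same alignment also differed in size in TNFRSF10D (0.52 and 1.03), TNFRSF10B (0.40 and 0.72) and FADD (0.42 and 0.56). In FAS they were close (0.43 and 0.39). The stretch of alignment therefore does not account for the differences between probe sets in the members at large. CASP8, on chromosome 2 from 202098165 to 202152434 in the annotation, had 8 probe sets. The 2 aligned to a sequence ending at 202142884 had log2 fold changes of 0.41 and 0.30, and the 6 that end further on had 0.72 to 0.94. CFLAR, on chromosome 2 from 201980681 to 202032243, makes a long and a short protein from alternative transcripts. Its 3 probe sets whose aligned sequence ends at 202005162 or 202025178 had log2 fold changes of 0.60, 0.44 and 0.56. The 5 that end at 202028695 or beyond had 0.40, 0.26, 0.30, 0.15 and 0.14, and the last of these missed the threshold (limma adjusted p = 0.10). In both genes the sets with the smaller changes were also the dimmest, and the part of signal level in this was not tested. CASP10, on chromosome 2 from 202047603 to 202094110, had a single probe set that was higher, at 0.25 (limma adjusted p = 0.0073). It was the only one of the 5 whose aligned sequence ends at 202065735, and it read 6.71, 6.70 and 6.88 in shCIRC and 6.52, 6.47 and 6.54 in shEV. The annotation does not say which protein form a probe set reads, and none of the sources names its genome build. In the same annotation FAS lies on chromosome 10 from 90749967 to 90775542 and FADD on chromosome 11 from 70049268 to 70053496.

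RIPK1, on chromosome 6 from 3064121 to 3115421, had probe sets of both signs. Of its 5, the 2 that passed were lower, with log2 fold changes of -0.10 and -0.14 (limma adjusted p = 0.046 and 0.020), and the other 3 had 0.02 to 0.04. No direction is therefore given for RIPK1. The 2 of TRADD, on chromosome 16 from 67188087 to 67194201, had -0.04 and -0.06. Many of these probe sets carry a suffix, x or s, by which the manufacturer marks sets that may also bind transcripts of other genes. The set with the highest mean carries it in TNFRSF10B, FAS, CASP8 and CFLAR, so that signal from related transcripts may be included there. TNFRSF10A and both probe sets of TNFRSF10D carry no such mark. The single probe set of TNFRSF10A is aligned to chromosome 8 from 22968801 to 23082962, a stretch that contains TNFRSF10D (22993100 to 23021543). Whether signal from TNFRSF10D enters it was not tested.

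Changes of members were also set against each other within each array, over 6 pairs. With 3 arrays against 3 the smallest two-sided p of an exact permutation test is 0.1, so no pair could pass, and the sizes are given with their intervals. In the probe sets with the highest mean, the widest gap of the 6 was between the caspases. The log2 signal of CASP8 minus that of CASP10 was 2.65, 2.65 and 2.81 in shCIRC and 2.15, 2.01 and 2.05 in shEV. The difference of the log2 fold changes was 0.64 (95% interval 0.45 to 0.83, exact permutation p = 0.1, adjusted 0.15 over the pairs). In mean signal CASP8 lay above 67.4% of all genes and CASP10 above only 37.3%. The dimmest probe sets of CASP8 had log2 fold changes of 0.41 and 0.30. The part of signal level in this gap was not tested. CASP8 minus CFLAR was 0.91, 0.72 and 0.91 in shCIRC and 0.66, 0.72 and 0.71 in shEV, a difference of 0.15 (95% interval -0.04 to 0.33, exact permutation p = 0.2). The groups touched there, so that a larger rise of the caspase than of its inhibitor was not resolved. CASP8 against FADD differed by 0.32 (95% interval -0.01 to 0.64, exact permutation p = 0.1). Over all combinations of probe sets the difference ran from 0.04 to 0.91 for CASP8 and CASP10, from -0.30 to 0.80 for CASP8 and CFLAR, and from -0.26 to 0.70 for CASP8 and FADD, so that the sign of the last 2 depends on the probe set. With the mean of each gene's probe sets CASP8 minus CFLAR was 0.34.

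Among the receptors, TNFRSF10B had a smaller log2 fold change than the decoy TNFRSF10D in the probe sets with the highest mean. TNFRSF10B minus TNFRSF10D was 0.33, 0.35 and 0.32 in shCIRC and 0.46, 0.47 and 0.43 in shEV, a difference of -0.12 (95% interval -0.15 to -0.08, exact permutation p = 0.1). Over all combinations of their probe sets it ran from -0.63 to 0.30, so the order of these receptors depends on the probe set. TNFRSF10B against TNFRSF10A differed by 0.04 (95% interval -0.05 to 0.14, exact permutation p = 0.1), and against FAS by -0.02 (95% interval -0.15 to 0.10, exact permutation p = 1.0). Over all combinations of probe sets those differences ran from 0.04 to 0.47 and from -0.02 to 0.43, and with the mean of the probe sets they were 0.29 and 0.24. All 6 pairs had adjusted p-values of 0.15 or more from this exact test. Its smallest p here is 0.1, so this was fixed by the number of arrays and does not show equal changes.

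Several of the genes lie side by side in the genome. The genes around them are given for comparison, and 22.8% of all genes were higher and 24.7% lower. CFLAR, CASP10 and CASP8 adjoin each other in band q33.1 of chromosome 2, and CASP10, the middle one, was the one that did not pass. Of the 8 measured protein-coding genes nearest to these 3, 4 on each side, 2 were higher, 2 lower and 4 did not pass, with a median log2 fold change of 0.03. The adjoining genes NDUFB3 and FLACC1 had 0.07 and 0.02, and ORC2, a subunit of the origin recognition complex, had -0.56. The TRAIL receptor genes lie together in band p21.3 of chromosome 8. Between TNFRSF10B and TNFRSF10D lies TNFRSF10C, a decoy receptor without a death domain, which had log2 signals of 6.17, 6.45 and 6.12 in shCIRC and of 6.11, 6.35 and 6.17 in shEV. Its log2 fold change was 0.04 (95% interval -0.20 to 0.28), and it lay above only 28.5% of all genes in mean signal. Of 9 genes there that are no members, TNFRSF10C included, 2 were higher, 4 lower and 3 did not pass, with a median of -0.03. BIN3 had 0.94 and RHOBTB2, next to TNFRSF10B, had -0.33. The neighbours were chosen after the members' values were seen.

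**Figure D3:**
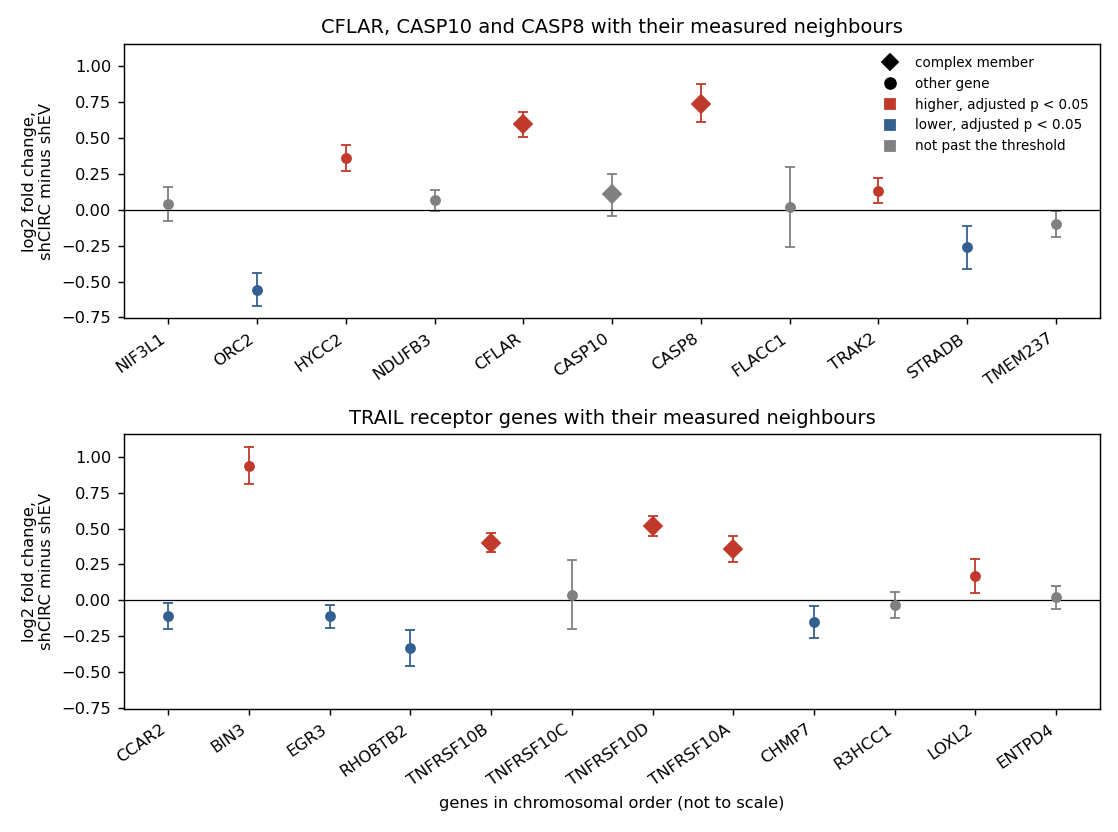
Log2 fold change of shCIRC minus shEV, with 95% intervals from limma, for the genes of each cluster and the 4 nearest measured protein-coding genes on either side, in chromosomal order and not to scale. Diamonds are members, red is higher, blue is lower, grey did not pass. CFLAR and CASP8 stand above CASP10 between them, and TNFRSF10B, TNFRSF10D and TNFRSF10A above TNFRSF10C. CASP10 and TNFRSF10C were dim, above 37.3% and 28.5% of all genes in mean signal.

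Promoter sequences are shown for every member in the RefSeq promoter set used here, 4 that rose and RIPK1. TNFRSF10A, TNFRSF10B, TNFRSF10D, CASP10 and TRADD were not in that set. Each is the 250 bases before the first listed start of the gene in GRCh38.p14, 5′ to 3′. Capitals mark matches on either strand to the ISRE (GAAA, any 2 bases and GAAA again, bound by interferon-activated factors), TTCNNNGAA (GAS, bound by STAT factors), TGANTCA (AP-1), GGGCGG (Sp1 box), the p53 decamer and the NF-kB site.
FAS, chr10:88990548-88990797, plus strand: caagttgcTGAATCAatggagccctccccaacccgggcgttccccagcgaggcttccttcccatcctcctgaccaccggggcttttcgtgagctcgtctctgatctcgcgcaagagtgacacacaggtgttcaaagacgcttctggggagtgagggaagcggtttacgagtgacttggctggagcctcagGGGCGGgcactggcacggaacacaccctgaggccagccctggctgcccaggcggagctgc
FADD, chr11:70203046-70203295, plus strand: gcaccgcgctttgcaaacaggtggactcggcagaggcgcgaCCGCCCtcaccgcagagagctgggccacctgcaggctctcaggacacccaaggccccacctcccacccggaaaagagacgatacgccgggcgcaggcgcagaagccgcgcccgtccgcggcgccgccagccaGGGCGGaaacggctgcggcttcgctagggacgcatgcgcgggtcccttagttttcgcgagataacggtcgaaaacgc
CASP8, chr2:201233213-201233462, plus strand: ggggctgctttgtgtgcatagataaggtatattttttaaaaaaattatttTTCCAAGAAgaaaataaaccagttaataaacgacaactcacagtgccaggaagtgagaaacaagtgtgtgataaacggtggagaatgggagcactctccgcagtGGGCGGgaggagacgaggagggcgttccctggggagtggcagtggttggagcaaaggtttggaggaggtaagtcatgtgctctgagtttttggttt
CFLAR, chr2:201118466-201118715, plus strand: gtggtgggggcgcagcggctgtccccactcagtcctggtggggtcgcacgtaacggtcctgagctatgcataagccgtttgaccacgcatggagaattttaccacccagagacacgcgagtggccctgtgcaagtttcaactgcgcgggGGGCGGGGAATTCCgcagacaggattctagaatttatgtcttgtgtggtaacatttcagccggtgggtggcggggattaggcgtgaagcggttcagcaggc
RIPK1, chr6:3063717-3063966, plus strand: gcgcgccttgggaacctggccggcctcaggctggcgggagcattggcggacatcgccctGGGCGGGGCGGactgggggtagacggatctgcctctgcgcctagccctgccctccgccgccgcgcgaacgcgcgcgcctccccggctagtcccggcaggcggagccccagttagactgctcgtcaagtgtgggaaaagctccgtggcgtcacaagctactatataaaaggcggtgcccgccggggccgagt

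The Sp1 box was the shared feature of these windows, in all 5 including RIPK1, and 42.6% of the 35116 promoters of the same length hold it. The capitals in FAS mark an AP-1 match and an Sp1 box, those in FADD a pair of Sp1 boxes, and those in RIPK1 a pair that overlap. In CASP8 they mark TTCCAAGAA, a GAS match, and an Sp1 box. GAS matches occur in 6.57% of all promoters and AP-1 matches in 6.57%. In CFLAR an Sp1 box and an NF-kB match overlap in 1 run of capitals, and 9.96% of all promoters hold an NF-kB match. No ISRE and no p53 decamer was found in these 5 windows (3.02% and 5.57% of all promoters). At later listed starts of the same genes, CASP8 and FAS have a p53 decamer and RIPK1 an ISRE. There CASP8 and CFLAR also have an AP-1 match, FAS an NF-kB match, and CFLAR, FAS and RIPK1 have Sp1 boxes. A match is a run of letters and not a measured binding site.

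The ligands of the complex were dim on these arrays. TNFSF10, which encodes TRAIL, had log2 signals of 5.27, 5.06 and 5.26 in shCIRC and of 5.30, 5.37 and 5.27 in shEV, above only 13.4% of all genes, with a log2 fold change of -0.12 (95% interval -0.27 to 0.03). FASLG, which encodes FAS ligand, had 4.77, 4.71 and 4.79 in shCIRC and 4.83, 4.59 and 4.82 in shEV, with a log2 fold change of 0.01 (95% interval -0.16 to 0.17). The TNF gene was not in the annotated table. TNFSF12, which encodes TWEAK, was the single called ligand of 5 measured, against 47.5% of all genes called in either direction. It lay above only 37.2% of all genes in mean signal. Its log2 fold change was -0.40 (limma adjusted p = 0.015), and it was not called with the methods' t-test (adjusted p = 0.07).

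Over a wider list of 56 pathway genes, which the members do not overlap, changes went both ways. Of the 49 measured, 15 were higher, 12 lower and 22 did not pass, with a median log2 fold change of 0.02. Of all genes, 22.8% were higher and 24.7% lower. Of 6 other receptors, 2 were higher and 1 lower. TNFRSF1A, the main TNF receptor, had a log2 fold change of 0.31, although its 4 probe sets ran from -0.00 to 0.50. TNFRSF12A, the TWEAK receptor, had 0.29, and TNFRSF21, the death receptor DR6, had -0.24.

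Of 16 other adaptors and regulators, 4 were higher and 4 lower, near the shares of all genes (22.8% higher and 24.7% lower). DAXX, a chromatin protein first described as a partner of FAS, had the largest shift of the whole list. Its log2 signals were 11.85, 11.84 and 11.81 in shCIRC and 10.68, 10.72 and 10.70 in shEV, a log2 fold change of 1.13 (95% interval 1.06 to 1.2, adjusted p = 2.7e-06 from limma), and its 3 probe sets ran from 1.11 to 1.17. PEA15, which binds FADD and caspase-8 through a death effector domain and hinders their assembly, had -0.58. TNIP1, a partner of the deubiquitinase TNFAIP3, had -0.70, with 8 probe sets from -0.73 to -0.36.

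Of 7 genes of the linear ubiquitin chain complex and the inhibitors of apoptosis, 3 were higher and 3 lower. Among all genes 22.8% were higher and 24.7% lower. BIRC2 and BIRC3, the ubiquitin ligases cIAP1 and cIAP2 that act on RIPK1, had log2 fold changes of 0.45 and 0.39. SHARPIN, a subunit of the linear ubiquitin chain complex, had -0.65. Of 4 necroptosis genes the effector MLKL was the single one called, with -0.64, and its log2 signals were 9.19, 9.23 and 9.32 in shCIRC and 9.94, 9.82 and 9.88 in shEV.

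Of the 8 genes downstream of the complex, 5 were higher, 0 lower and 3 did not pass, with a median log2 fold change of 0.21. The shares over all genes were 22.8% higher and 24.7% lower. BID, which carries the signal of caspase-8 to mitochondria, had 0.36, and HTRA2, a mitochondrial protease, had 0.47. Of 3 measured genes that modify or retain the receptors, MARCHF8, a ubiquitin ligase that lowers TRAIL receptors at the surface, had -0.52, CAV1, the caveolar scaffold, had -0.37, and ZDHHC7, an enzyme that palmitoylates FAS, had 0.12. The last was 0.08 and not called after cyclic loess or a further quantile normalization. MARCHF8 was dim, above only 28.5% of all genes in mean signal.

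**Figure D4:**
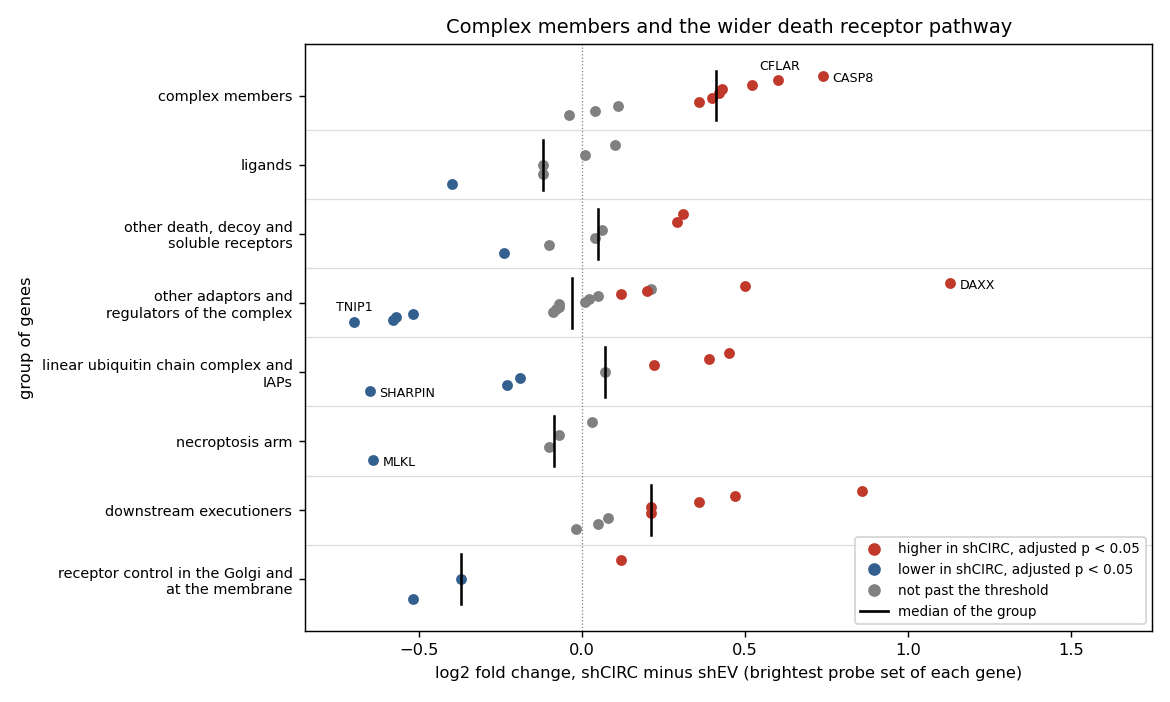
Log2 fold change of shCIRC minus shEV for the 10 complex members (top) and the 49 measured genes of the wider pathway in 7 groups, for the probe set with the highest mean. Red is higher, blue is lower, grey did not pass, and the black bar is the median of the group. The members have a median of 0.41, the wider list one of 0.02.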

How the data were processed

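RNA of 3 shCIRC and 3 shEV RKO samples was hybridized to PrimeView arrays, with groups and replicate numbers taken from the sample titles. The authors deposited log2 signals after quantile normalization in R, and GCOS 1.4 appears in the submitters' processing notes. How background was corrected and probes summarized is not stated there. Of 49395 probe sets the annotated table keeps 39269, those that exceed an array's 20th percentile on 4 or more arrays of 6. Members entered by name, and all 10 passed this filter. The table's p-values, FDR and fold changes of the authors' own comparison were not used.

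Control probe sets (73) and those of several genes (1539) or none (199) were left out. Symbols were updated by Entrez number with the RefSeq table of GRCh38.p14 (37380 probe sets matched, 78 did not), and the probe set with the highest mean was kept per gene. Groups were compared in limma 3.58.1 (lmFit, eBayes; R 4.3.3), at a threshold of 0.05 on the Benjamini-Hochberg adjusted p. The fit was tested on simulated data. Fold changes between paired members were compared by an exact two-sided permutation test in scipy 1.17.1, with intervals from the pooled spread of the per-array differences. Named beside the members were TNFSF10, FASLG and up to 3 called genes with the largest change in each group of the pathway list. Of these, 1 gene downstream of the complex is not reported here. TNFRSF10C and the chromosomal neighbours were named after their values were seen. The members and lists were chosen with earlier results of these data known. Array medians lay between 6.82 and 6.85. Arrays correlated with r of 0.998 to 0.999 within a group and 0.987 to 0.988 between groups. The median SD within a group was 0.06 in shCIRC and 0.05 in shEV. The number of arrays limits the precision. Alternatives were other scalings, filters, probe set rules, tests and thresholds, a block for the replicate number, and the omission of single arrays. Promoter sequences are from RefSeq, GRCh38.p14.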

Additional observations from a re-analysis of the deposited data

How the results depend on the processing

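The members' calls depended little on the alternatives tried. Each scaling started from the deposited signals, which were already quantile normalized. Background correction, probe summary and that first normalization were not varied, and their part was not tested. With each array left out in turn, 7 members were higher (7 to 7) and 0 lower (0 to 0). Other scalings, tests and a threshold of 0.01 also gave 7, the mean of a gene's probe sets gave 8, with CASP10 added (log2 fold change 0.11, adjusted p = 0.032 from limma, against a range of 0.032 to 0.63 over its alternatives), and a fold above 1.3 gave 6, without TNFRSF10A. CASP10 and TRADD have no value among genes above the median signal. RIPK1 turned to -0.03 with the mean and -0.09 with the median of its probe sets, the median being chosen after the data were seen, and to -0.10 and -0.14 in single probe sets. The difference between TNFRSF10B and FAS, -0.02, turned to 0.24 with the mean of the probe sets, because the other probe sets of TNFRSF10B changed more, and that setting also moved TNFRSF10B minus TNFRSF10A to 0.29 and CASP8 minus CFLAR to 0.34. TNFRSF10B minus FAS ranged from -0.05 to 0.02 with an array left out. With an array left out, the other pairs ranged from -0.12 to -0.11 for TNFRSF10B and TNFRSF10D, 0.01 to 0.06 for TNFRSF10B and TNFRSF10A, 0.11 to 0.21 for CASP8 and CFLAR, 0.58 to 0.68 for CASP8 and CASP10, and 0.25 to 0.43 for CASP8 and FADD, and FASLG from -0.07 to 0.05. ZDHHC7 was no longer called after quantile normalization again (0.08), cyclic loess (0.08) or in 4 of the 6 fits without an array, and TNFSF12 not with the methods' t-test (adjusted p = 0.07). A fold above 1.3 left 6 pathway genes higher and 8 lower, and 1183 of all genes higher and 1498 lower. With an array left out, 12 to 14 pathway genes were higher and 11 to 13 lower, and 3177 to 3433 of all genes higher and 3540 to 3782 lower. Over the scalings the median of all genes lay between -0.0077 and 0.020. The replicate numbers are shared between the groups only as numbers: arrays of the same number deviated together with r of 0.066, 0.086 and 0.099, each the highest of its array, a hint from the data and not the design. With the replicate number as a block, 7 members were higher and 0 lower, 14 pathway genes were higher and 12 lower, and 3591 of all genes were higher and 3842 lower.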
